A study of Homo sapiens with 3 samples.

Results

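The 41 genes described here encode the SNARE proteins that drive membrane fusion, the factors that take SNARE complexes apart, and syntaxin-binding (STXBP) regulators. They were taken by gene name from both deposited gene tables, in which they fill 42 of 57820 rows. VAMP7, a pseudoautosomal gene, has 2 rows with equal values, which were added. Merging such rows leaves 57773 genes in all. Of the 41 genes, 38 had at least 20 counts over both libraries, the minimum for a ratio. BNIP1, USE1 and STX8 stayed below it, with 11 and 4, 2 and 7, and 3 and 0 counts in the Flag and IgG libraries.

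SNARE proteins sit on vesicles and on the membranes those vesicles fuse with. A fusion complex is a bundle of helices called Qa, Qb, Qc and R; syntaxins mostly give the Qa helix, VAMP-type proteins the R helix, and SNAP25-type proteins both Qb and Qc. Munc18-type proteins such as STXBP2 and STXBP3 hold syntaxins and guide assembly, and the ATPase NSF with its SNAP adaptors pulls spent complexes apart. In kidney epithelium these proteins serve traffic to the apical and basolateral surface, endosomes, lysosomes and the Golgi.

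The cells were ACHN, a long-established line from a human renal cell carcinoma, made to stably express Flag-tagged MEX3A, a KH-domain protein that binds RNA. RNA that came down with an anti-Flag antibody or with control IgG was sequenced. The labels give 3 samples (input, IgG and Flag), each from MEX3A-Flag cells, and none from cells without the transgene; they do not say whether the line is 1 clone or a pool. The IgG and Flag libraries were used, with 1 library each, and input RNA was not analysed here, so the amount of an mRNA in the cells and how well it was captured cannot be told apart. The comparison asks which mRNAs came down with MEX3A-Flag beyond the IgG background. With 1 library per group there is no replicate check and no p-value, and all intervals are exact 95% Clopper-Pearson intervals that cover counting error only: without molecular identifiers, PCR copies of 1 molecule count separately.

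Totals were 5498125 counts for Flag and 3412863 for IgG. Mitochondrially encoded RNAs took 33.0% of the Flag and 8.93% of the IgG counts, and MKI67 alone took 3.92% and 16.6%, so ratios on the scale of total counts depend on a few abundant RNAs. MEX3A mRNA had 103 Flag and 5 IgG counts, a ratio of 12.8 (5.31 to 40.2). Of 8 renal epithelial or ACHN markers, 7 reached 20 counts, among them PAX8 (2532 Flag and 1049 IgG counts), while MME had 4 and 0. Of 8 markers of other cell types, PTPRC, CD3E, CDH5 and ALB had 0 counts in both libraries, while SYT1 had 39 Flag and 23 IgG counts, CD68 30 and 13, VWF 9 and 0, and SYP 3 and 0; their part in the results was not tested.

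As a group, the SNARE mRNAs were spread over the ratios much as other genes were. Of 38 members, 10 were enriched in the Flag library, meaning that the whole interval of the CPM ratio (each gene's counts scaled to its library's total) lay above 2, and 1 was depleted, with the interval wholly below 0.5. Their share of enriched genes, 26.3%, stood beside 28.7% of the 10805 genes that entered, and their share of depleted genes, 2.63%, beside 1.32%. The median log2 ratio was 0.87 for the members and 0.95 for all genes. Relative to the median gene, whose ratio was 1.93, 11 members lay wholly above and 11 wholly below, or 28.9% each, against 30.1% and 30.4% of all genes. The split of calls moved with scaling: TMM, which lowers every log2 ratio by 0.78, left 2 members enriched and 4 depleted, 5.26% and 10.5% of the members beside 12.0% and 6.12% of all genes. Median-of-ratios scaling gave the same 2 and 4 beside 11.7% and 6.25%, and totals without mitochondrial RNAs and the top genes 8 and 3 beside 20.3% and 2.49%. On total counts, 20 members had an interval wholly above 1 and 4 wholly below it, beside 58.1% and 9.00% of all genes.

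**Figure D1:**
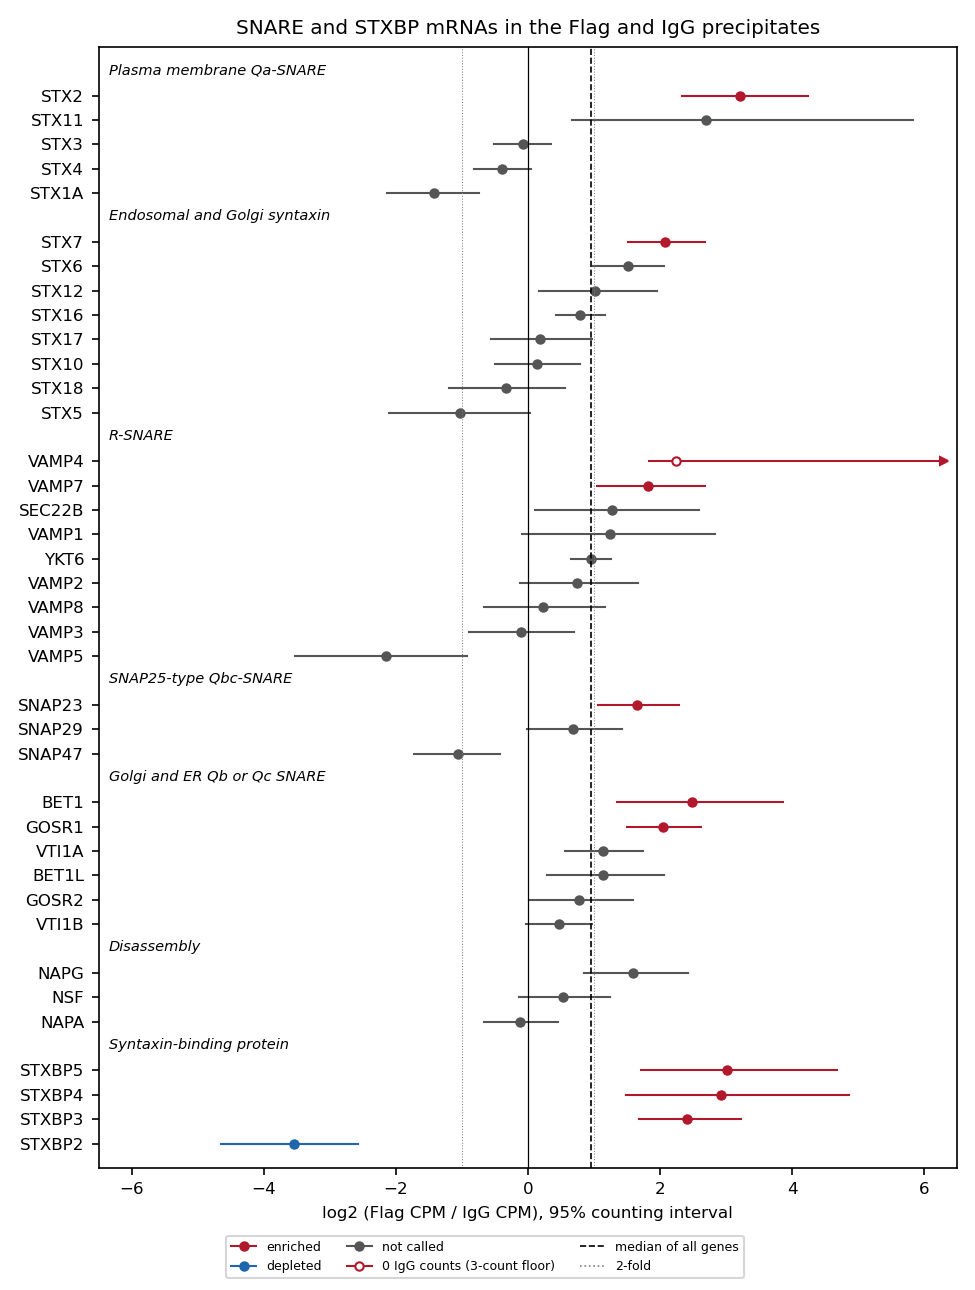
Log2 ratio of Flag to IgG CPM for the 38 members with at least 20 counts, grouped by role, with exact 95% counting intervals (1 library per group); the open point is VAMP4, set to a floor of 3 IgG counts. The 10 enriched members lie right of the 2-fold line, STXBP2 lies far to the left, and most role groups hold members on both sides of the median gene (dashed).

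The syntaxins of the plasma membrane lay far apart, with 1 of 5 enriched (against 28.7% of all genes). STX2, a Qa-SNARE also known as epimorphin (ENSG00000111450), had 165 Flag and 11 IgG counts, or 30.0 and 3.22 CPM, and its ratio was 9.31 (5.07 to 19.0). It was the only member still enriched at a 4-fold threshold. STX11, a Qa-SNARE of immune-cell secretion, had 21 and 2 counts, which gave 6.52 (1.59 to 57.3), not a call. STX1A, the syntaxin of neuronal and endocrine exocytosis (ENSG00000106089), went the other way, with 30 Flag and 50 IgG counts and a ratio of 0.372 (0.229 to 0.597). STX3 of apical delivery and STX4 of basolateral delivery lay near 1, at 0.947 (116 and 76 counts, 0.703 to 1.28) and 0.765 (106 and 86 counts, 0.570 to 1.03). The intervals of STX1A, STX3 and STX4 lay wholly below the median gene and that of STX2 wholly above it.

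Of the 4 syntaxin-binding proteins, 3 were enriched (against 28.7% of all genes) and 1, the only depleted member, was depleted (against 1.32%). STXBP5 (tomosyn), which binds plasma membrane SNAREs and holds back fusion, had 65 Flag and 5 IgG counts and was 8.07-fold higher (3.29 to 25.7), with part of the IgG reads divided with another gene. STXBP4, known from insulin-stimulated glucose transporter traffic, had 49 and 4 counts and was 7.60-fold higher (2.79 to 29.0). STXBP3 (Munc18c), the partner of STX4 in the same traffic, had 146 and 17 counts and was 5.33-fold higher (3.22 to 9.40). The Flag counts of all 3 exceeded the IgG counts by far more than the library sizes do, although the calls of all 3 were lost with TMM scaling. STXBP2 (Munc18-2, ENSG00000076944), partner of STX3 and STX11, had 10 Flag and 72 IgG counts and was 11.6-fold lower (5.96 to 25.2).

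Overlapping genes were looked at for both ends of this group. In RefSeq, PET100, of cytochrome c oxidase assembly, overlaps STXBP2, and it had the opposite pattern, 116 Flag and 4 IgG counts, a ratio of 18 (6.84 to 67.2). Added together, STXBP2 and PET100 had 126 and 76 counts and a ratio of 1.03 (0.768 to 1.39), which is not a call. Both genes have whole counts in the tables, so the tables show no read divided between them, and the strand setting of the counting is not given in the sources used here. COX11 overlaps STXBP4 with 76 and 29 counts, and the sum of both was 2.35-fold higher (1.59 to 3.56), not called. Most counts of that sum are from COX11, so it says little of STXBP4 itself. The ratio of STXBP2 is uncertain.

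Among the other syntaxins, 1 of the 8 with enough counts was enriched (12.5%, against 28.7% of all genes). STX7, the Qa-SNARE of late endosomes (ENSG00000079950), had 204 Flag and 30 IgG counts, or 37.1 and 8.79 CPM, and was 4.22-fold higher (2.87 to 6.42). STX6, a Qc-SNARE of the trans-Golgi network and endosomes, had 170 and 37 counts and just missed the call at 2.85 (1.99 to 4.19). The early endosomal STX12 had a ratio of 2.03 (49 and 15 counts, 1.12 to 3.89), and STX16 of the trans-Golgi network 1.73 (234 and 84 counts, 1.34 to 2.25), or 1.64 when summed with NPEPL1 and the readthrough gene STX16-NPEPL1. STX17, a syntaxin of autophagosomes, and STX10, a relative of STX6, lay near 1 at 1.14 (44 and 24 counts) and 1.10 (60 and 34 counts). STX18 of the ER had a ratio of 0.798 (27 and 21 counts). STX5, the Qa-SNARE of ER-to-Golgi and intra-Golgi transport, was lowest at 0.490 (15 and 19 counts, 0.232 to 1.02), and its interval lay wholly below the median gene.

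The R-SNAREs, which ride mostly on vesicles, held 2 enriched genes of 9 (22.2%, against 28.7% of all genes). VAMP4 of the trans-Golgi network had 23 Flag counts and 0 IgG counts. Against a floor of 3 counts, 0.879 CPM in the IgG library, its ratio was 4.76. The exact interval, which uses the 0, had a lower bound of 3.57 and no upper bound. VAMP7, a longin-domain R-SNARE of late endosomes and lysosomes, had 91 and 16 counts over its 2 rows and was 3.53-fold higher (2.06 to 6.44). YKT6, a lipid-anchored longin SNARE and the most abundant member by counts, had 368 and 118, and its ratio of 1.94 (1.57 to 2.40) matched the median gene. SEC22B of ER-to-Golgi transport (31 and 8 counts) and VAMP1 (23 and 6 counts) had ratios of 2.41 and 2.38. The deposited annotation labels SEC22B a processed transcript, and all other members protein-coding. VAMP2, VAMP8 and VAMP3 followed with 1.67 (43 and 16 counts), 1.17 (32 and 17 counts) and 0.931 (36 and 24 counts). VAMP5, first described in muscle, was lowest with 8 and 22 counts and a ratio of 0.226 (0.0869 to 0.526), not called, with an interval wholly below 1.

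SNAP25-type SNAREs covered a similar range. SNAP23, the widely expressed relative of neuronal SNAP25, had 142 Flag and 28 IgG counts and was 3.15-fold higher (2.09 to 4.91); it overlaps the more abundant ZNF106 (519 and 171 counts) in RefSeq, and their sum, mostly ZNF106, had 2.06 (1.76 to 2.43), not a call. SNAP29, which pairs with STX17 in autophagosome fusion, had a ratio of 1.60 (62 and 24 counts, 0.986 to 2.69). SNAP47, a more distant relative, had 37 and 48 counts and a ratio of 0.478 (0.303 to 0.750). SNAP29 and SNAP47 had fractional counts, meaning that reads were divided with other genes.

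All 6 measured Qb and Qc SNAREs outside the syntaxins and SNAP25-type genes had ratios above 1 on the scale of total counts. So did 8433 of all 10805 genes, and of the 6 members GOSR2 and VTI1B fell below 1 with TMM scaling. BET1 of ER-to-Golgi transport had 63 Flag and 7 IgG counts and was 5.59-fold higher (2.56 to 14.5). GOSR1, the Golgi Qb-SNARE also called GS28, had 212 and 32 counts and was 4.11-fold higher (2.83 to 6.17). VTI1A, BET1L, GOSR2 and VTI1B were not called, at 2.20 (117 and 33 counts), 2.19 (53 and 15 counts, fractional), 1.71 (55 and 20 counts) and 1.38 (111 and 50 counts).

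None of the 3 disassembly genes was called, and 70.0% of all genes were not called either. The adaptor gene NAPG (gamma-SNAP) had 88 Flag and 18 IgG counts and a ratio of 3.03 (1.81 to 5.36), the ATPase gene NSF 63 and 27 counts and 1.45 (0.909 to 2.37), and NAPA (alpha-SNAP) 70 and 47 counts and 0.924 (0.630 to 1.37). NSF has a partial copy, NSFP1, with 8.33 Flag and 0 IgG counts, and the sum of both gave 1.63.

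Grouped by the fusion step they serve, by a textbook assignment made after the values were known, late endosome and lysosome SNAREs had the highest summed ratio, 2.42 (1.97 to 3.01), with STX7 and VAMP7 enriched. SNAREs within the Golgi gave 2.19 (1.85 to 2.59), of the early endosome and trans-Golgi network 2.0 (1.70 to 2.35), and of ER-to-Golgi transport 1.89 (1.38 to 2.61). The ratio of the median gene, 1.93, lay just below the late endosome and lysosome interval. It lay within the intervals of the within-Golgi, early endosome and trans-Golgi network, ER-to-Golgi and autophagosome SNAREs. YKT6 gave 368 of the 648 Flag counts within the Golgi, where the median TPM ratio was 1.45, against 1.73 for all genes. Autophagosome SNAREs gave 1.72 (1.45 to 2.04) with 0 of 4 enriched (against 28.7% of all genes). Most of these counts are from YKT6, and their median TPM ratio was 0.674, with STX17 and SNAP29 below 0.5. The plasma membrane set of 10 genes gave 1.26 (1.11 to 1.44), with a median log2 ratio of 0.07 against 0.95 for all genes, and the small Golgi-to-ER set 1.10 (0.738 to 1.67). Some genes serve more than 1 step and entered each, so these sums share counts. The sums also hold genes below 20 counts: BNIP1 and USE1 in the Golgi-to-ER set, and STX8 in the late endosome and lysosome set. Only 2 of the 4 Golgi-to-ER genes had enough counts for a ratio.

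Related members were then set against each other by the odds ratio of their 4 counts, which no scaling of the libraries changes. The 16 pairs were chosen after the values were seen, each with the higher gene first, so their direction, and how many intervals exclude 1 (12 of them), follow in part from that choice and are a description. STX2 stood 24.5-fold above STX1A (11.1 to 58.5), 12.1-fold above STX4 (6.07 to 26.3) and 9.77-fold above STX3 (4.89 to 21.3). STXBP3 stood 59.9-fold above STXBP2 (25.3 to 156), a value that rests on the STXBP2 counts described above. NAPG stood 3.26-fold above NAPA (1.69 to 6.53), SNAP23 6.52-fold above SNAP47 (3.50 to 12.4) and STX6 2.59-fold above STX10 (1.44 to 4.68). The intervals of VAMP2 against VAMP3 (1.78, 0.774 to 4.19), VTI1A against VTI1B (1.59, 0.931 to 2.76), BET1 against BET1L (2.53, 0.891 to 7.91) and STX7 against STX12 (2.08, 0.960 to 4.35) held 1, and at these counts a difference up to the upper bound of each could not be told from none.

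**Figure D2:**
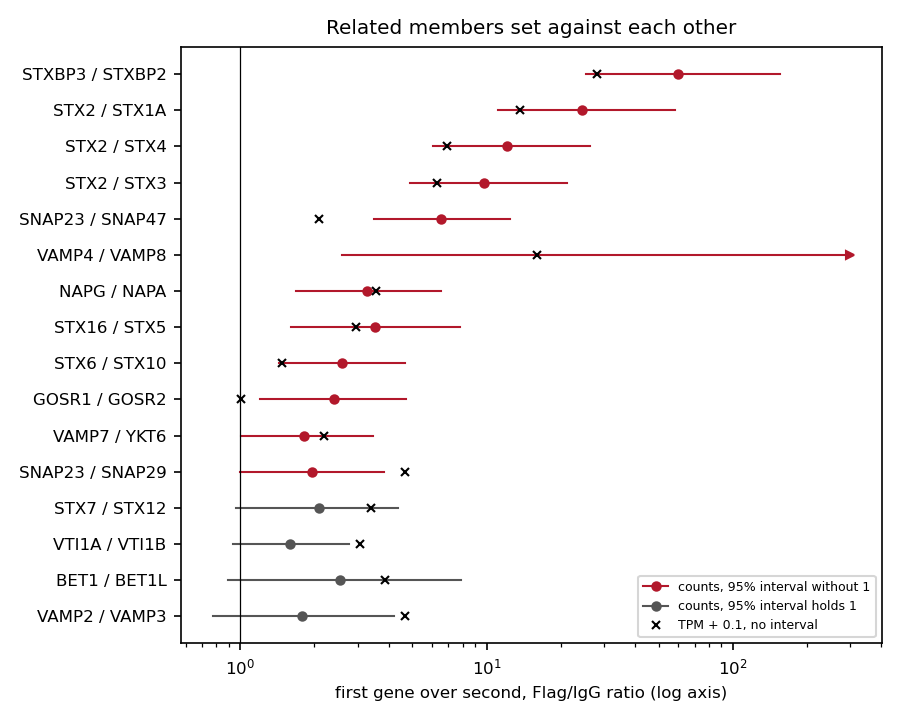
Ratio of the first gene's Flag to IgG ratio over that of the second, on a log axis, from counts with exact 95% intervals (points and lines) and from TPM + 0.1 (crosses, no interval), for 16 pairs of related members. The pairs were chosen after their values were seen, higher gene first; the interval of 12 lies above 1, and the TPM value for GOSR1 over GOSR2 falls to 1.01.

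Levels of different genes were compared by the deposited TPM, which divides by transcript length. In the IgG library the highest members were STX1A (25.6 TPM), STX4 (25.5), STXBP2 (20.5), NAPA (18.9) and YKT6 (17.3). In the Flag library the order began with STX7 (36.4 TPM), YKT6 (27.7), SNAP23 (22.5), STX16 (20.5), STX10 (20.4) and STX2 (20.4). STX2 moved from rank 26 of 41 in the IgG library to rank 6, STXBP3 from 31 to 9 and BET1 from 35 to 10, while STX1A moved from 1 to 15 and STXBP2 from 3 to 27. YKT6, SNAP23 and STX4 were among the 7 highest in both libraries. VAMP4 and STX8 were listed at 0 TPM in the IgG library. TPM values carry no interval, since the files give no depth for them apart from the counts.

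**Figure D3:**
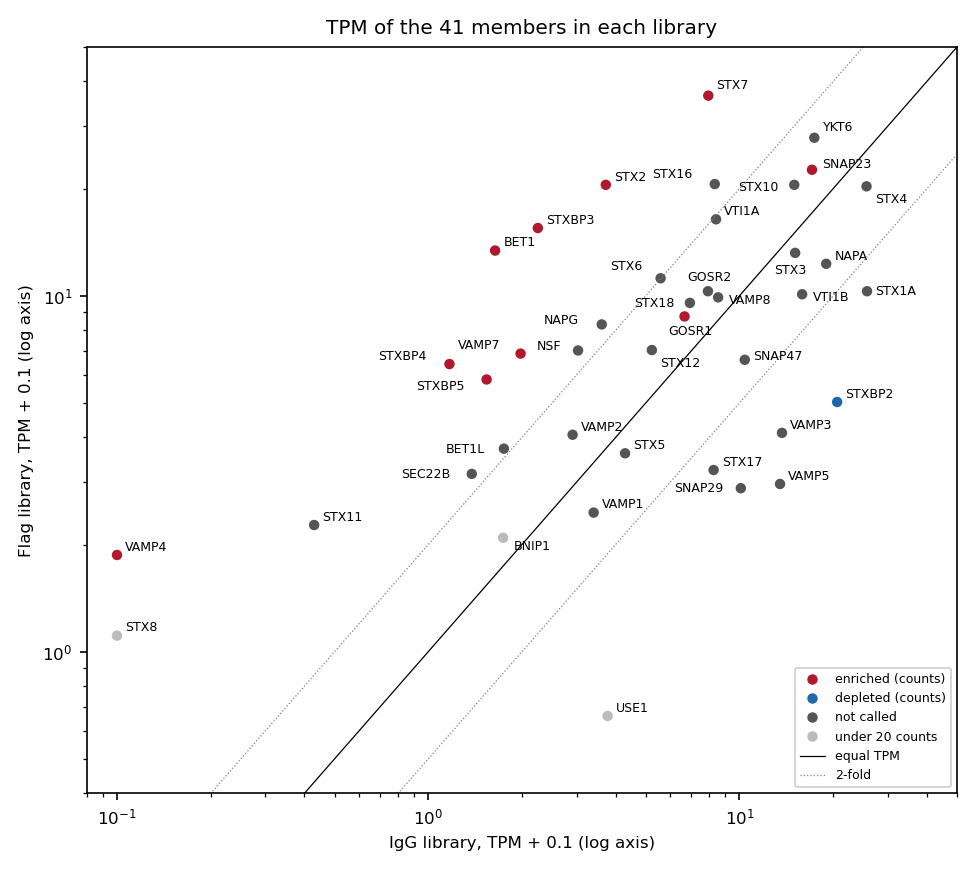
TPM + 0.1 of the 41 members in the IgG (horizontal) and Flag (vertical) libraries, both on log axes; colours give the call from counts, the solid line is equal TPM and dotted lines are 2-fold. STX7 at 36.4 Flag TPM and STX2, STXBP3 and BET1 lie above the upper dotted line, and STX1A, STXBP2, VAMP3, VAMP5, SNAP29, STX17 and the low-count USE1 lie below the lower one.

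TPM ratios, here log2(TPM + 0.1), changed the picture for several members. Of 38 members 15 were past 2-fold higher (39.5%, against 44.2% of all genes) and 6 past 2-fold lower (15.8%, against 6.59%). With a pseudocount of 1, 12 and 6 members passed, beside 37.7% and 4.96% of all genes. The 6 were STXBP2 (0.244), VAMP5 (0.220), STX1A (0.402), VAMP3 (0.301), SNAP29 (0.284) and STX17 (0.392). SNAP29 and STX17 had count ratios above 1, so their direction differed between the 2 measures. It also differed, short of 2-fold by TPM, for VAMP1 (2.38 by counts and 0.724 by TPM), VTI1B (1.38 and 0.637) and STX18 (0.798 and 1.38). GOSR1 (1.31) and SNAP23 (1.32) lost their calls. BET1 (8.20), STXBP3 (6.90), STX2 (5.5), STXBP4 (5.5), STX7 (4.60), STXBP5 (3.78) and VAMP7 (3.47) stayed past 2-fold. So did VAMP4 (18.7), whose value depends on the pseudocount because its IgG TPM was 0.

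Because TPM divides by length, a member whose deposited length differs between the libraries has unlike count and TPM ratios. The deposited length of a gene is the mean over its isoforms, weighted by their estimated abundance in that library, so it shifts when reads are assigned to longer or shorter isoforms. SNAP29 had a length of 895 bases in the IgG library and 4205 in the Flag library, a ratio of 4.70. GOSR1 went from 1605 to 4599 bases (2.87), STX17 from 1043 to 2708 (2.60), VAMP3 from 700 to 1798 (2.57) and SNAP23 from 668 to 1321 (1.98). VTI1B (1.97) and STX2 (1.54) were also more than 1.5 times longer in the Flag library. STXBP2 (0.456), STX5 (0.636), NSF (0.636) and STX18 (0.648) were shorter there by as much.

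Of 30 members with at least 10 counts in each library, 7 were more than 1.5 times longer in the Flag library (23.3%, against 14.1% of 8580 genes) and 4 in the IgG library (13.3%, against 7.41%). The median length of these 30 was 1713 bases in the Flag and 1254 in the IgG library, while that of all genes was 2142 and 1974. With at least 20 counts in each library, 6 of 20 members were longer in the Flag library by this measure (30.0%, against 12.5%) and 2 in the IgG library (against 6.44%). With at least 50 counts only 5 members remained, 1 of them longer in the Flag library (beside 9.43%) and 0 in the IgG library (beside 4.89%). The lengths come from isoform estimates with no error given, and for SNAP29, VAMP3 and STX17 they rest on 24 IgG counts each. Fewer counts stand behind STXBP2 (10 Flag counts), STX2 (11 IgG counts) and STX5 (15 Flag and 19 IgG counts). The reads behind the isoform assignments were not used here, so which exons differ was not tested.

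**Figure D4:**
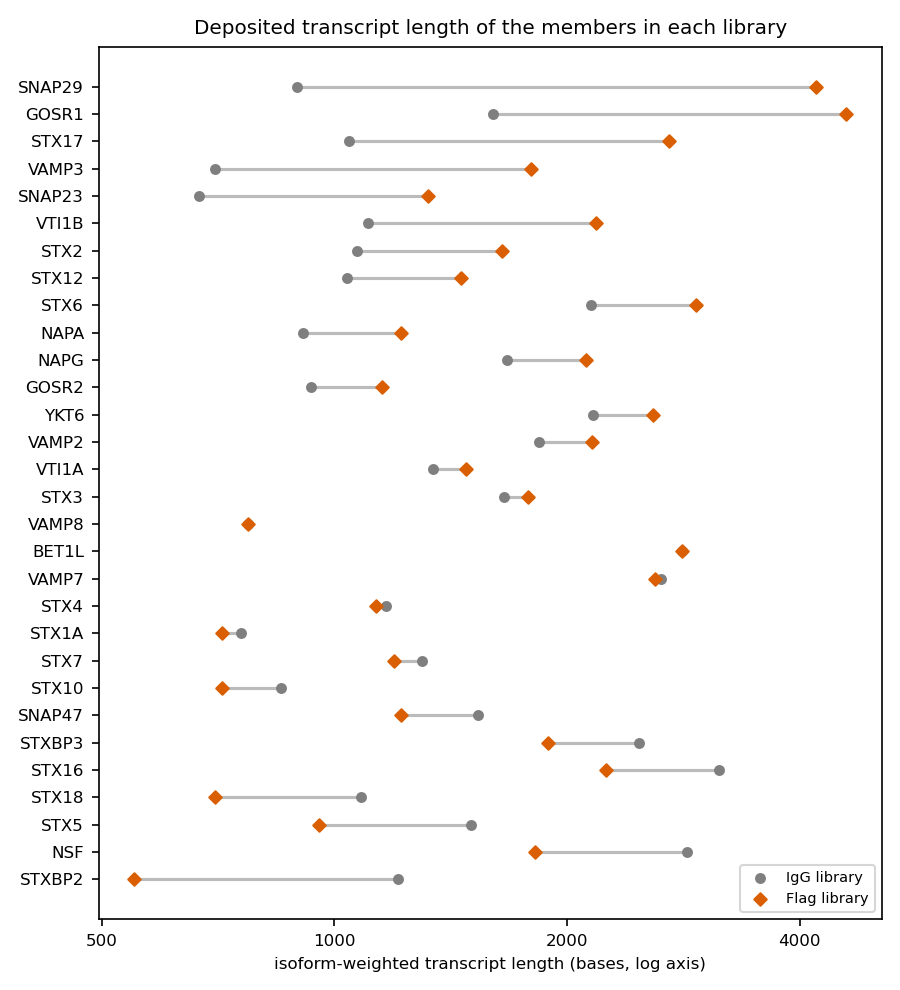
Isoform-weighted transcript length in bases (log axis) in the IgG (circles) and Flag (diamonds) libraries for the 30 members with at least 10 counts in each, ordered by their ratio. SNAP29, GOSR1, STX17 and VAMP3 at the top were at least 2.57 times longer in the Flag library, and STXBP2 at the bottom went from 1209 to 551 bases.

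Regulators and SNAREs outside the 41 genes gave a similar share of calls. Of 25 listed genes 14 had enough counts, of which 4 were enriched (28.6%, against 28.7% of all genes) and 0 depleted, with a median log2 ratio of 1.02. By the lower bound of the interval 2 genes led. TSNARE1, a syntaxin-like gene, had 100 and 13 counts and was 4.77-fold higher (2.67 to 9.28), and SYT11, a synaptotagmin, had 104 and 14 counts and was 4.61-fold higher (2.63 to 8.73). The others enriched were SCFD1 (4.69-fold), the Munc18-type partner of STX5, and SEC22C (3.22-fold), a relative of SEC22B. By TPM the ratio was 9.46 for SYT11, 3.77 for SCFD1 and 2.70 for SEC22C, but 1.86 for TSNARE1, short of 2-fold. VPS33B (0.648, 24 and 23 counts), a Munc18-type protein, and TXLNA (1.21, 538 and 275 counts), which binds syntaxins, had the smallest upper bounds of the interval, and neither was called. SNAP25, STX19, STXBP5L, STXBP6 and SYT7 had no reads in either library, so levels up to the 3-count limit of 0.546 CPM (Flag) and 0.879 CPM (IgG) remain possible.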

How the data were processed

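The deposited gene tables hold, per the file headers, expected counts (RSEM's estimates, not normalized), isoform-weighted lengths, TPM and FPKM. The deposited TPM corrects for transcript length, and the deposited FPKM was not used. The submitters' processing notes name RSEM, STAR, GRCh37 and hg19, without versions or roles. Annotation release, read filters and strand setting: not given in the sources used here.

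Pseudoautosomal row pairs were added and the deposited expected counts rounded to whole numbers. CPM is counts over each library's total. A gene entered with at least 20 counts over both libraries. The Flag share of both counts gave the exact 95% interval of the CPM ratio (SciPy 1.17.1), and a call needed an interval wholly past 2-fold. The interval was tested on simulated data. A count of 0 was set to 3. Overlapping neighbours came from RefSeq (GRCh38.p14, names only, 41 of 41 members matched by symbol). Scalings used edgeR 4.0.16 and DESeq2 1.42.0; no count test was run. The members and lists were chosen with earlier results of these data known. All members could be named, and of other lists the 2 genes with the highest lower and the 2 with the lowest upper bound of the interval. SCFD1 and SEC22C were named after their values were seen, likewise the genes at 0.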

Additional observations from a re-analysis of the deposited data

How the results depend on the processing

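No paired analysis was possible because each group has 1 library. The main counts were 10 members enriched, 1 depleted and a median log2 ratio of 0.87. TMM scaling gave 2, 4 and 0.09, median-of-ratios scaling 2, 4 and 0.08, and totals without mitochondrial RNAs and the top genes 3 depleted and 0.54; a scaling shifts all genes alike. STX2 and VAMP4 kept their enriched calls under all 3 scalings. TPM gave 6 depleted at both pseudocounts, with medians of 0.46 (pseudocount 0.1) and 0.40 (pseudocount 1). SNAP29 turned to 0.284 and 0.342 and STX17 to 0.392 and 0.452; their deposited lengths differ between the libraries. A minimum of 100 counts left 15 members, 6 enriched, 0 depleted and a median of 1.51, and whole counts only gave a median of 1.02. A 1.5-fold threshold gave 3 depleted and a 4-fold threshold 1 enriched. For the 100-count minimum, whole counts only and these thresholds, the matching values of all genes were not computed. No comparison with other genes can be drawn from them. Sums with neighbouring genes were chosen after seeing the data: STXBP2 with PET100 turned to 1.03, and STXBP4 with COX11 (2.35) and SNAP23 with ZNF106 (2.06) lost their calls, while the other sums changed no call. With a median of 83.5 counts per member, small ratios could not be told from 1.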

Other observations

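Tethering complexes catch a vesicle before SNAREs pair. All 32 listed genes of the exocyst, COG, HOPS and CORVET, GARP and NRZ complexes and the golgin gene USO1 had enough counts, of which 6 were enriched in the Flag library (18.8%, against 28.7% of all genes) and 0 depleted, with a median log2 ratio of 0.62 against 0.95. VPS11, a core subunit of HOPS and CORVET, had 137 Flag and 4 IgG counts and was 21.3-fold higher (8.12 to 79.1), the highest ratio among the SNARE, regulator and tether genes that entered. EXOC8 of the exocyst, with fractional counts, was 5.48-fold higher (3.92 to 7.83). EXOC7 (0.634, 0.515 to 0.781, fractional counts) and COG1 (0.653, 0.331 to 1.29, fractional counts) had the smallest upper bounds of the interval, and neither was called. The other subunits of the VPS11 core, VPS16 (0.782), VPS18 (1.19) and VPS33A (2.28, 1.45 to 3.71, fractional counts), and the HOPS subunits VPS39 (0.955) and VPS41 (3.43, enriched), were named after their values were seen. By TPM the ratio was 25.2 for VPS11 and 5.29 for EXOC8, but 1.31 for VPS41, short of 2-fold.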
